A study of Mus musculus with 2 samples.

Results

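The 10 genes described here write, remove or guard DNA methylation, or were grouped with those that do: Dnmt1, Uhrf1, Dnmt3a, Dnmt3b, Dnmt3l, Tet1, Tet2, Tet3, Qser1 and Jmjd1c. They were taken by symbol from the 32285 genes of the feature list, and all 10 were found. The study asked what the transcriptional regulator YAP1 does in the mouse epiblast, and deleted Yap1 with Cre recombinase driven by Sox2. Embryos at E7 were combined into 1 pool a genotype before they were dissociated, and 1 droplet library was made from each pool. The Yap1 cKO pool held 3 embryos that carried Sox2-Cre and 2 floxed Yap1 alleles. The control pool held 4 embryos, labelled wild type, which the study describes as Sox2-Cre carriers with 1 floxed allele and, in its account of the mice, as littermates without Cre. Sox2-Cre acts in the epiblast and its derivatives and not in the extraembryonic lineages. The study considers these lineages probably heterozygous for Yap1 in embryos with 2 floxed alleles, controls among them. Of controls with 1 floxed allele it does not say this. With 1 library a genotype there is no replicate, so no test was made, and every interval given is a 95% interval that covers counting error only.

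DNMT3A and DNMT3B place new methyl groups on cytosine, and DNMT3L, which has no catalytic activity of its own, stimulates them. DNMT1 copies the methylation pattern onto the new strand after replication, guided by UHRF1, which binds hemimethylated CpG sites. The TET enzymes oxidise methylcytosine, the first step of its removal. QSER1 is known from human pluripotent cells as a protein that works with TET1 to keep DNMT3 enzymes away from promoters and enhancers of developmental genes. JMJD1C belongs to the KDM3 family of histone H3 lysine 9 demethylases. In the mouse embryo the genome is remethylated as the epiblast forms, with Dnmt3b as the main de novo enzyme of the early postimplantation embryo, while the extraembryonic ectoderm stays less methylated.

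The genes lie on 7 chromosomes of GRCm38. Qser1 (ENSMUSG00000074994) spans chr2:104754795-104816760 on the minus strand, Dnmt3b (ENSMUSG00000027478) chr2:153649450-153687730 on the plus strand, and Dnmt3l (ENSMUSG00000000730) chr10:78041947-78063622 on the plus strand. The RefSeq promoter windows of GRCm38.p6 hold 300 bases, from 250 before to 50 after a transcription start, and all 10 genes matched, with 18 windows in all. CpG sites, the substrate of the enzymes, are crowded in some of these windows and sparse in others. The median of all 32851 windows is 7 CpG sites, the window of Qser1 holds 49 and that of Dnmt3b 30. The 3 windows of Dnmt3l hold 6, 4 and 3, the lowest numbers among the members beside the first window of Dnmt1, which holds 2. The following sequences show this contrast for the gene with the lowest ratio in the epiblast, the main de novo enzyme of this stage and the gene detected mainly in 1 lineage. They read 5′ to 3′ along each gene's strand, with CpG sites in capitals, at chr2:104816647-104816946 (minus), chr2:153649199-153649498 (plus) and chr10:78042037-78042336 (plus).
Qser1: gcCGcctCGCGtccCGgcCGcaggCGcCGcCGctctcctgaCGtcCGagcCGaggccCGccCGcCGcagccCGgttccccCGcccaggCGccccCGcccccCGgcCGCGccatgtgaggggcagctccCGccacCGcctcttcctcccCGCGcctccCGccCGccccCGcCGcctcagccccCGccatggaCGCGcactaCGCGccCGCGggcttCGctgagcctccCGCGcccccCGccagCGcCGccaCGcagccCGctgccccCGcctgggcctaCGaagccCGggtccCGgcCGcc
Dnmt3b: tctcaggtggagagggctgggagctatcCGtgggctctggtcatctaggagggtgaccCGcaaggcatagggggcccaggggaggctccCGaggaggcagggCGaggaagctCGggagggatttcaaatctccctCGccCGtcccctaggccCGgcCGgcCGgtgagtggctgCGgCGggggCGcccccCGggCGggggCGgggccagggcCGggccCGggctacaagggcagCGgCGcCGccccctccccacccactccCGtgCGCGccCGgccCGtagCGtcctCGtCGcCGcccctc
Dnmt3l: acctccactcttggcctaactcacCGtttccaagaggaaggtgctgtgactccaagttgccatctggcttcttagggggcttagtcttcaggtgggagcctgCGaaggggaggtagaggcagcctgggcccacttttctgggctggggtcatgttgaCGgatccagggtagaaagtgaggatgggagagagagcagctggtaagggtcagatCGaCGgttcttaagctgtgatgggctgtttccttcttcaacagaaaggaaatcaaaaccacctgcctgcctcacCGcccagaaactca
The letters GGAATG on either strand, the core bound by the TEAD partners of YAP1, occur in 14.7% of all windows. Among the members they occur in 1 window each of Uhrf1, Jmjd1c and Dnmt3l, and neither in that of Qser1 nor in that of Dnmt3b, which says only that these letters are not in those windows.

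After the study's filters (at least 5000 genes and at most 10% mitochondrial UMIs a barcode, no doublet call) 790 control and 860 Yap1 cKO cells remained, close to but not the same as the study's own numbers, with medians of 75696 and 80559 UMIs (unique molecular identifiers, each counting 1 captured transcript). The libraries shared 2 barcodes in all and 0 among the cells kept. Both are labelled female, yet cells with UMIs of Y-linked genes and none of Xist made up 51.6% of the control and 15.6% of the Yap1 cKO cells, so both pools held male embryos and in unequal shares. Cells were parted by marker genes into 10 populations, and 11 control and 9 Yap1 cKO cells outside every gate, with 1 and 7 cells of intermediate visceral endoderm markers, were left out. Where a pair of values is joined by "and" without naming the library, the control comes first. Levels are given in CPM, a gene's UMIs for every 1000000 UMIs summed over the cells of a population, a unit fit to compare 1 gene across populations but not genes with each other. Yap1 itself was at 29.2 CPM (622 UMIs) in control against 1.11 CPM (28 UMIs) in Yap1 cKO epiblast cells, for a ratio of 0.0381 (0.0251 to 0.0556), and at 24.7 and 18.9 CPM in the extraembryonic ectoderm.

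Dnmt3b followed the path from the epiblast to the mesoderm. In the control library it was at 1397 CPM in epiblast cells with little Fgf8 (under 50 CPM, the Fgf8-low epiblast), 1150 CPM in Fgf8-positive epiblast, 745 CPM in the primitive streak, 290 CPM in nascent mesoderm, 114 CPM in lateral and extraembryonic mesoderm and 97.8 CPM in blood and endothelial progenitors. The Yap1 cKO library gave the same order along this path, from 1298 through 1073, 681, 381 and 166 to 121 CPM. Each step parted the intervals of neighbours in both libraries, apart from the last in the control. The epiblast exceeded nascent mesoderm 4.6-fold (4.35 to 4.87) in control and 3.07-fold (2.95 to 3.19) in Yap1 cKO cells. Node and axial mesendoderm kept 502 and 618 CPM, and the extraembryonic ectoderm 385 and 317 CPM.

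Dnmt3a shared the peak in the epiblast but not the level in the extraembryonic ectoderm. It was at 143 CPM in control against 141 CPM in Yap1 cKO Fgf8-low epiblast, and at 6.77 and 8.52 CPM in the extraembryonic ectoderm, its lowest level of all populations in either library. The epiblast exceeded the extraembryonic ectoderm 19.8-fold (16.4 to 24.0) and 14.4-fold (11.9 to 17.7) for Dnmt3a, against 3.47-fold (3.38 to 3.56) and 3.69-fold (3.57 to 3.82) for Dnmt3b. Of the UMIs of both de novo enzymes, Dnmt3a took 9.11% (8.80 to 9.44) in control epiblast, 30.1% (26.1 to 34.4) in control blood and endothelial progenitors and 1.73% (1.43 to 2.07) in control extraembryonic ectoderm. The Yap1 cKO shares were 9.50%, 31.7% and 2.62%. These shares also depend on gene length and on how each transcript is captured, so only their differences between populations can be read.

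Dnmt3l had the narrowest pattern of the 10 genes. It was at 55.3 CPM (931 UMIs) in control against 55.2 CPM (674 UMIs) in Yap1 cKO extraembryonic ectoderm, with a ratio of 0.998 (0.903 to 1.10) between the libraries. Every other population lay at 2.36 CPM or less in both. No UMI was seen in node and axial mesendoderm, which puts the extraembryonic ectoderm at least 54.9-fold higher in control and 69.8-fold higher in Yap1 cKO, taken against 3 UMIs in the node gate of each library. With each cell thinned to 38000 UMIs, a Dnmt3l UMI was held by 84.7% (78.4 to 89.8) of the 170 control cells and by 82.8% (73.6 to 89.8) of the 93 Yap1 cKO cells in the extraembryonic ectoderm. The same was true of 6.23% (3.60 to 9.91) of 257 and 8.16% (5.06 to 12.3) of 245 epiblast cells, and of 0 of 36 and 0 of 40 node cells, which allows up to 8.33% and 7.50%. Unthinned, 94.9% and 93.9% of extraembryonic ectoderm cells and 12.3% and 18.4% of epiblast cells had one, at median depths of 85015 and 105143 UMIs in the former and 73222 and 85078 in the latter. The 2 epiblast shares overlap with what the few node cells allow, so the shares alone do not part these populations. Summed over all cells, the epiblast was at 1.92 CPM (1.38 to 2.61) and 2.06 CPM (1.54 to 2.71). These intervals lay above the node's upper limits of 1.24 and 0.973 CPM. Whether so low a level, from 41 and 52 UMIs, is expression in the epiblast was not tested.

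The maintenance pair was nearly even across the embryo. Dnmt1 lay between 110 and 123 CPM in 9 of 10 control populations and at 91.1 CPM in visceral endoderm, and in Yap1 cKO cells it ran from 88.2 CPM in visceral endoderm to 123 CPM in blood and endothelial progenitors. Neighbours in this order did not part beyond their intervals in either library. Uhrf1 was likewise lowest in visceral endoderm, at 75.1 and 74.7 CPM, and highest in extraembryonic ectoderm, at 123 and 116 CPM, where lateral and extraembryonic mesoderm of the control had the same level. Over the 20 points given by 10 populations and 2 libraries, Dnmt1 and Uhrf1 had a Pearson r of 0.795 on log2(CPM + 1), a description of points that share libraries and depth.

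In the epiblast the pair differed along the cell cycle. Control epiblast cells were ranked by the share of their UMIs that came from 13 S-phase genes. The 87 with the largest share held 130 CPM of Uhrf1 and the 87 with the smallest 76.9 CPM, for a ratio of 1.69 (1.52 to 1.89). In Yap1 cKO epiblast the corresponding levels over 85 cells each were 133 and 83.1 CPM, for a ratio of 1.60 (1.45 to 1.76). Dnmt1 had ratios of 1.01 (0.918 to 1.12) and 0.986 (0.896 to 1.08) between the same cells, so in the epiblast its level followed the S-phase genes in neither library. In visceral endoderm the ratio between such cells was 1.16 (0.933 to 1.45) in control and 1.42 (1.24 to 1.62) in Yap1 cKO for Dnmt1, and 2.68 (2.07 to 3.5) and 2.01 (1.73 to 2.33) for Uhrf1. In extraembryonic ectoderm it was 0.915 (0.818 to 1.02) and 1.12 (0.984 to 1.28) for Dnmt1, and 1.25 (1.12 to 1.39) and 1.46 (1.29 to 1.66) for Uhrf1. The summed S-phase genes were at 2043 CPM in control against 1911 CPM in Yap1 cKO epiblast.

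Each TET gene was highest in a different place. Tet1, the main TET gene of pluripotent cells, was highest in Fgf8-low epiblast, at 135 CPM in control against 128 CPM in Yap1 cKO, and stayed below 75 CPM outside the epiblast and streak. Tet1 took 82.5% (81.2 to 83.8) and 81.7% (80.3 to 83.0) of all TET UMIs in the epiblast. Tet3 was highest in node and axial mesendoderm, at 41.3 and 32.2 CPM, where it took 40.6% and 37.7% of TET UMIs, and lowest in nascent mesoderm, at 7.52 and 8.34 CPM. The intervals of its highest levels overlapped those of anterior visceral endoderm in control and of Fgf8-low epiblast in Yap1 cKO. In both libraries the node exceeded the streak for Tet3, 1.81-fold (1.34 to 2.48) and 2.07-fold (1.55 to 2.78). Tet2 was scarce, with 45 and 46 UMIs in all epiblast cells. Its highest level was in anterior visceral endoderm, the signalling tissue that patterns the front of the embryo, at 21.6 CPM (26 UMIs in 22 cells) and 13.6 CPM (27 UMIs in 27 cells). That exceeded the other visceral endoderm 5.79-fold (3.15 to 10.7) in control and 3.19-fold (1.96 to 5.04) in Yap1 cKO, where its interval overlapped that of blood and endothelial progenitors (7.36 CPM).

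**Figure D1:**
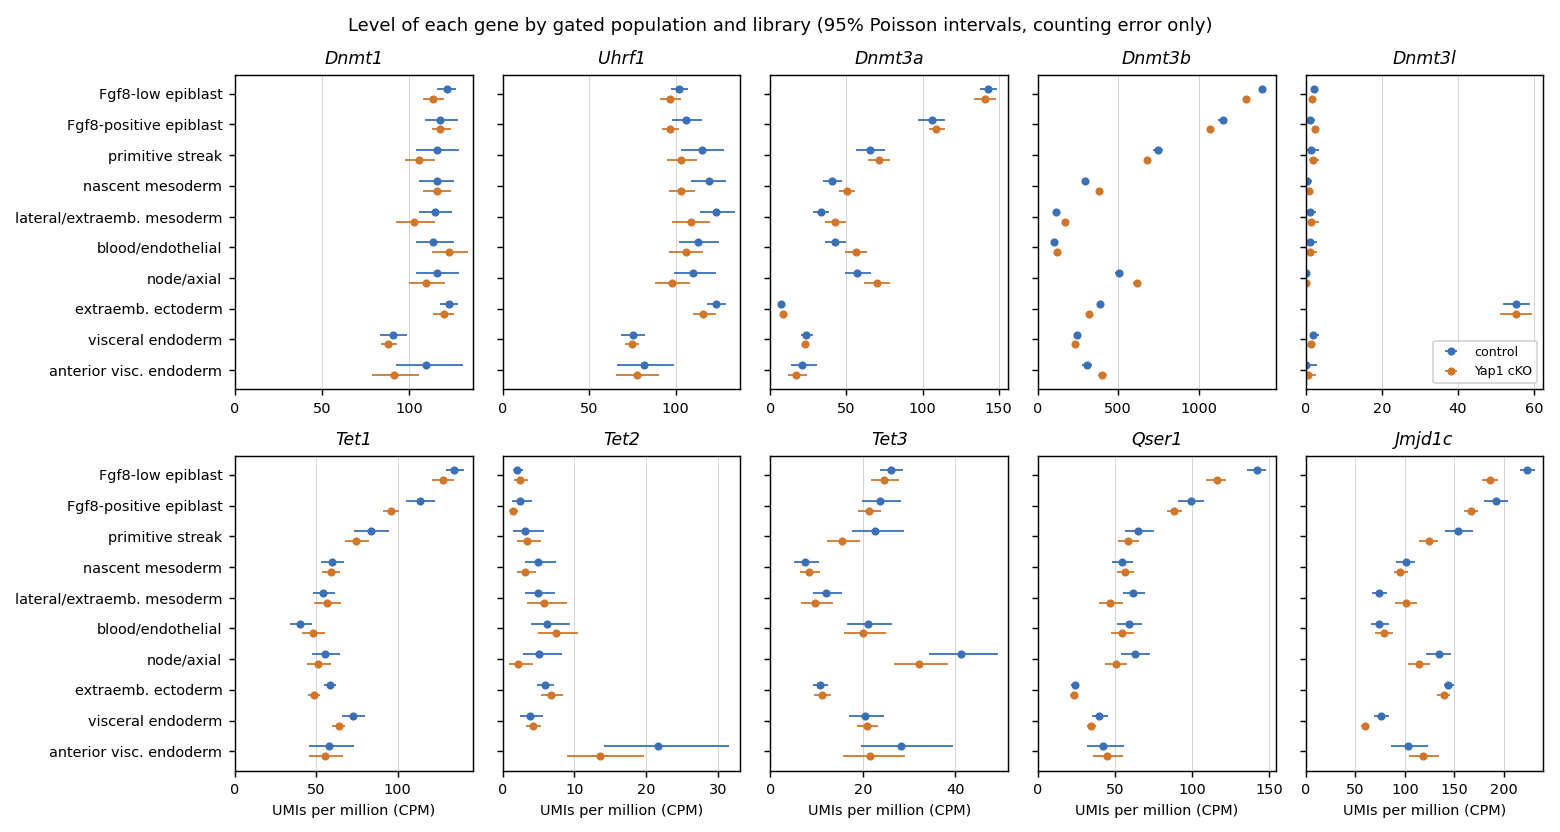
Level of each gene (x axis, CPM, with a scale of its own in each panel) in the 10 gated populations (y axis) of the control and Yap1 cKO libraries. Points are summed UMIs and bars 95% Poisson intervals, for counting error only. Dnmt3b and Qser1 step down from the epiblast, Dnmt3l stands at 55.3 and 55.2 CPM in the extraembryonic ectoderm alone, and Dnmt1 is nearly even.

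Qser1 had a pattern close to that of Dnmt3a. It was at 142 CPM in control against 116 CPM in Yap1 cKO Fgf8-low epiblast, at 99.2 and 88.4 CPM in Fgf8-positive epiblast, between 46.9 and 65.2 CPM in the streak, mesoderm, blood and node gates, and at 23.8 and 23.3 CPM in extraembryonic ectoderm. The epiblast exceeded the extraembryonic ectoderm 5.53-fold (4.97 to 6.15) in control and 4.31-fold (3.81 to 4.88) in Yap1 cKO. Among 6181 genes with a mean of at least 20 CPM over the 20 points, gate markers left out, the patterns most like that of Qser1 were those of Rbpms (r = 0.962), Dnmt3a (r = 0.932) and Map7d3 (r = 0.932). Jmjd1c ran from 223 and 186 CPM in Fgf8-low epiblast to 73.9 CPM in control lateral mesoderm and 60 CPM in Yap1 cKO visceral endoderm. Its nearest genes were Msh6, a mismatch repair gene (r = 0.926), Clpb (r = 0.896) and Kcnk1 (r = 0.892), and among the members Dnmt3b (r = 0.880). The nearest to Dnmt3b were Rab25 (r = 0.934), Foxo1 (r = 0.909) and Bag4 (r = 0.908), to Tet1 Dtnb (r = 0.882) and Rbpms2 (r = 0.866), and to Dnmt3l Mybl2 (r = 0.957), Noct (r = 0.944) and Trim27 (r = 0.930). These correlations describe points that share libraries, and no p-value is given for them.

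In the epiblast, the tissue in which Yap1 was deleted and the one the study is about, all 8 members with at least 100 UMIs had a ratio of Yap1 cKO to control below 1, and 1 of them, Qser1, was past the fold used here (a ratio of 0.8 or less, or 1.25 or more). Over all 11429 genes tested in the epiblast, 8.73% were past the fold in the lower direction and 5.10% in the higher. The median ratio of all these genes was 0.969, so most of them also had a ratio below 1. Among the 5633 genes with at least 1000 UMIs, a group that holds these 8 members, 3.09% were past it in the lower and 1.78% in the higher direction. A count of 1 in 8 does not set the members apart from this background. Their median ratio was 0.885. The study itself names Qser1, Dnmt3b and Jmjd1c among the genes lower in the Yap1 cKO epiblast of these same data. The members were chosen with earlier results of these data known. That all 8 lay below 1, and their median, are therefore not read as results about the set.

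Qser1 was at 131 CPM (2799 UMIs) in control against 100 CPM (2523 UMIs) in Yap1 cKO epiblast, for a ratio of 0.763 (0.723 to 0.805), and 5.54% of the genes tested had a lower one. Jmjd1c was at 215 and 175 CPM, with a ratio of 0.813 (0.780 to 0.848), and Tet1 at 130 and 110 CPM, with a ratio of 0.844 (0.80 to 0.890). These 3 genes lay below their control level by more than counting error. So did Dnmt3b, at 1334 CPM (28439 UMIs) and 1169 CPM (29459 UMIs), with a ratio of 0.877 (0.862 to 0.891), the narrowest interval of the set. Dnmt3a followed at 134 and 123 CPM, with a ratio of 0.918 (0.872 to 0.966). Nearer to the median of all genes were Uhrf1, with a ratio of 0.937 (0.884 to 0.993), and Dnmt1, with 0.963 (0.913 to 1.02). Tet3 was at 25.5 and 22.7 CPM, for a ratio of 0.893 (0.793 to 1.01). Dnmt3l (41 and 52 UMIs) and Tet2 (45 and 46 UMIs) were too few to be tested against the fold.

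**Figure D2:**
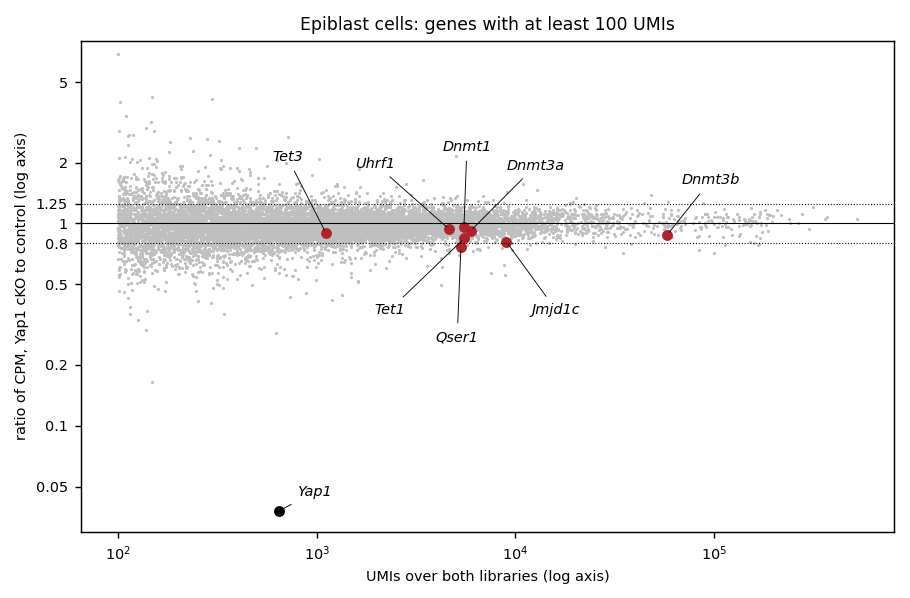
Ratio of CPM in epiblast cells, Yap1 cKO to control (y axis, log), against the UMIs of a gene over both libraries (x axis, log) for genes with at least 100 UMIs. Grey points are single genes, dotted lines mark ratios of 0.8 and 1.25, and red points are the 8 members tested. Qser1 lies at 0.763, the other 7 between 0.813 and 0.963, and Yap1 (black) at 0.0381.

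The epiblast differed between the libraries in its share of Fgf8-positive cells. Fgf8, a growth factor gene switched on toward the streak, was at 66.4 CPM in control against 163 CPM in Yap1 cKO epiblast, and Fgf8-positive cells made up 25.7% (20.5 to 31.4) of the control and 54.5% (48.2 to 60.7) of the Yap1 cKO epiblast. The epiblast markers Pou5f1, Sox2, Utf1 and Pou3f1 summed to 1181 and 1028 CPM. Within a library, Qser1, Dnmt3a, Dnmt3b, Tet1 and Jmjd1c were all higher in Fgf8-low than in Fgf8-positive cells, Qser1 1.43-fold (1.30 to 1.58) in control and 1.31-fold (1.21 to 1.42) in Yap1 cKO. The share of Fgf8-positive cells thus moved with the ratio of these genes in the whole epiblast. The study reports Fgf8 itself as higher in the Yap1 cKO epiblast. Within the classes it was at 12.8 and 18.2 CPM in Fgf8-low and at 223 and 272 CPM in Fgf8-positive cells. A different mix of cells and a higher Fgf8 level in like cells therefore cannot be told apart, here or in the classes and bins below.

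Within both Fgf8 classes the ratios of Qser1, Dnmt3b, Jmjd1c and Dnmt3a were closer to 1 than in the whole epiblast, and that of Tet1 in the Fgf8-low class only. Qser1 had a ratio of 0.814 (0.759 to 0.873) in Fgf8-low and 0.891 (0.805 to 0.987) in Fgf8-positive epiblast, so it was past the fold in neither. Dnmt3b had ratios of 0.929 (0.910 to 0.949) and 0.933 (0.906 to 0.961), Jmjd1c 0.832 (0.788 to 0.879) and 0.870 (0.809 to 0.937). For Dnmt3a the ratios were 0.980 (0.918 to 1.05) and 1.04 (0.94 to 1.14), and for Tet1 0.945 (0.882 to 1.01) and 0.842 (0.765 to 0.927). All these ratios, and the weighted ones that follow, are of both sexes together, whose shares differed between the libraries. None of the 8 members tested was past the fold in Fgf8-low epiblast, where 7.54% of all genes were lower and 4.55% higher past it, nor in Fgf8-positive epiblast, where 11.1% were lower and 6.93% higher. With the Yap1 cKO levels weighted to the control's shares of Fgf8-low and Fgf8-positive UMIs, a step chosen after seeing the data, the epiblast ratio of Qser1 became 0.829 (0.782 to 0.879), that of Jmjd1c 0.841 (0.804 to 0.880), that of Dnmt3b 0.930 (0.914 to 0.947), that of Tet1 0.922 (0.871 to 0.976) and that of Dnmt3a 0.992 (0.938 to 1.05).

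Finer bins of Fgf8 showed where the difference in Qser1 lay. Cells without an Fgf8 UMI held 145 CPM of Qser1 in control and 117 CPM in Yap1 cKO, for a ratio of 0.807 (0.704 to 0.923). Cells with 50 to 150 CPM of Fgf8 held 118 and 94.5 CPM, for a ratio of 0.799 (0.692 to 0.923). In cells with 150 CPM or more, 33 control and 85 Yap1 cKO cells, the levels were 83.5 and 84.0 CPM and the ratio 1.01 (0.869 to 1.17). The control level thus stepped down across these bins further than the Yap1 cKO level did. Jmjd1c was lower in Yap1 cKO in all 4 bins, with ratios from 0.812 to 0.894.

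**Figure D3:**
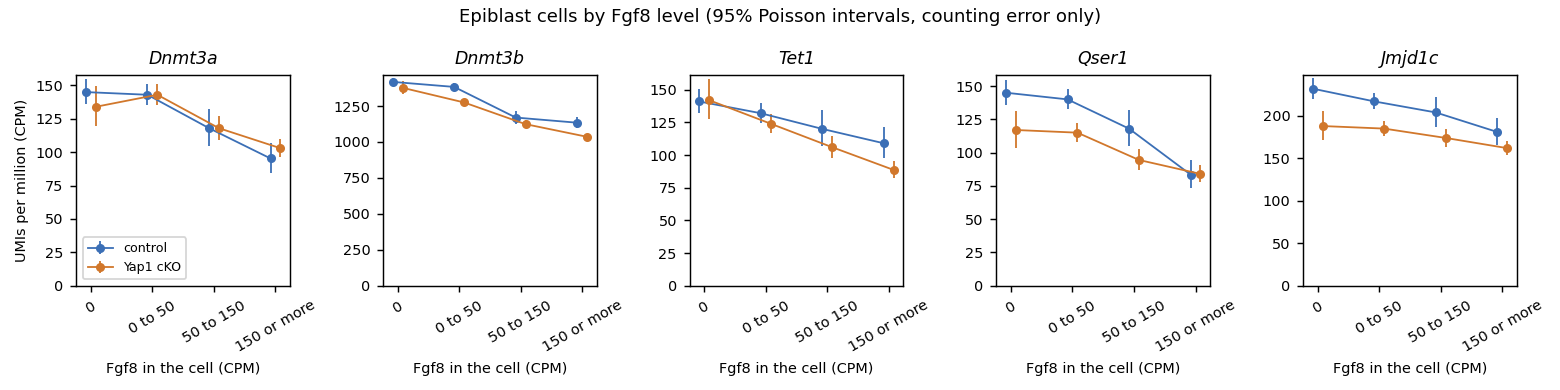
Level of 5 members (y axis, CPM) in epiblast cells binned by their Fgf8 level (x axis, CPM), control and Yap1 cKO, with 95% Poisson intervals for counting error only. Qser1 is lower in Yap1 cKO in the first 3 bins and level with control (83.5 and 84.0 CPM) in the last, and Dnmt3a overlaps throughout.

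The lower level of Qser1 in the whole epiblast did not rest on a few cells, though it was not seen in every Fgf8 bin. In cells with 150 CPM or more of Fgf8 the ratio was 1.01 (0.869 to 1.17). The points that follow are of all epiblast cells, so they hold the different shares of Fgf8-positive cells. The 10% point, the median and the 90% point of the epiblast cells lay at 68.7, 126 and 209 CPM in control and at 48.0, 93.1 and 162 CPM in Yap1 cKO, and the cell with the most Qser1 UMIs held 1.21% and 1.74% of them. With each cell thinned to 38000 UMIs, a Qser1 UMI was held by 99.6% (97.9 to 100) of the 257 control cells and by 95.1% (91.6 to 97.4) of the 245 Yap1 cKO cells in the epiblast, and the mean was 5.11 and 3.68 UMIs a cell. Unthinned, the shares were 100% and 99.6%. In the extraembryonic ectoderm, where Qser1 was lowest, the thinned shares were 57.6% (49.8 to 65.2) and 58.1% (47.4 to 68.2). Dnmt3b was found in 100% of the thinned epiblast cells of either library, with medians of 1308 and 1153 CPM.

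Male and female cells could be parted in both pools, and the ratios differed between them. Y-bearing cells made up 52.9% of the control and 20.4% of the Yap1 cKO epiblast. In Y-bearing epiblast Qser1 was at 135 and 84.3 CPM, for a ratio of 0.624 (0.566 to 0.688), and in Xist-bearing epiblast at 127 and 107 CPM, for a ratio of 0.842 (0.783 to 0.906). It was lower in Yap1 cKO in both sexes and past the fold in Y-bearing cells only. For Tet1 the ratio was 0.679 (0.619 to 0.744) in Y-bearing and 0.993 (0.922 to 1.07) in Xist-bearing epiblast, for Jmjd1c 0.705 (0.655 to 0.759) and 0.872 (0.825 to 0.922), and for Dnmt3b 0.854 (0.831 to 0.877) and 0.933 (0.912 to 0.955). Tet1 thus differed between the libraries in Y-bearing cells and not measurably in Xist-bearing cells. Within the Fgf8-low epiblast, with 16 Y-bearing Yap1 cKO cells, Qser1 had ratios of 0.684 (0.585 to 0.796) and 0.857 (0.784 to 0.937). In Fgf8-positive epiblast they were 0.742 (0.631 to 0.873) and 1.03 (0.897 to 1.20). Cells of 1 sex can come from as few as 1 embryo of a pool, so sex and embryo cannot be told apart here.

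In the mesoderm, blood and node gates the ratios of Dnmt3b and Dnmt3a lay above 1, while in the primitive streak Dnmt3b was at 745 and 681 CPM, for a ratio of 0.914 (0.866 to 0.964), and Dnmt3a at 65.2 and 71.3 CPM, for a ratio of 1.09 (0.917 to 1.31). Dnmt3b was at 290 CPM (1310 UMIs) in control against 381 CPM (2835 UMIs) in Yap1 cKO nascent mesoderm, for a ratio of 1.32 (1.23 to 1.41). In lateral and extraembryonic mesoderm it was at 114 and 166 CPM, for a ratio of 1.46 (1.30 to 1.65), in blood and endothelial progenitors at 97.8 and 121 CPM, for a ratio of 1.23 (1.07 to 1.42), and in node and axial mesendoderm at 502 and 618 CPM, for a ratio of 1.23 (1.15 to 1.31). Dnmt3a was at 40.5 and 50.3 CPM in nascent mesoderm, for a ratio of 1.24 (1.04 to 1.49). Its ratios were 1.28 (1.01 to 1.61) in lateral and extraembryonic mesoderm, 1.33 (1.08 to 1.64) in blood and endothelial progenitors and 1.23 (1.01 to 1.49) in the node. Divided by its ratio in extraembryonic ectoderm, Dnmt3a came to 0.987 (0.718 to 1.36) in nascent mesoderm. The same division gave 1.02 (0.717 to 1.44) in lateral and extraembryonic mesoderm and 1.05 in blood and endothelial progenitors. Dnmt3b in nascent mesoderm was not past the fold with cells weighted equally (1.19) or in Y-bearing cells (1.20). Both genes were higher in Yap1 cKO in these 4 populations, and in each the gate in control also held less of the summed epiblast markers.

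The mesoderm, blood and node gates were not alike in the 2 libraries. The summed epiblast markers were at 87.0 and 129 CPM in nascent mesoderm, 43.6 and 57.5 CPM in lateral and extraembryonic mesoderm, and 15.5 and 33.4 CPM in blood and endothelial progenitors. Fgf8 stood at 277 and 370, 59.4 and 105, and 5.34 and 22.1 CPM. In the node gate the epiblast markers were at 214 and 286 CPM, the node markers at 356 and 250 CPM and the anterior visceral endoderm list at 1140 and 569 CPM, Lhx1 at 648 and 235 CPM among them. In lateral and extraembryonic mesoderm the gate's own markers were at 1016 and 797 CPM and the anterior visceral endoderm list at 180 and 279 CPM, with 3 and 198 UMIs of Cer1. The part of these shifts in the ratios of the members was not tested. When only cells with under 50 CPM of the epiblast markers were kept, a step chosen after seeing the data, Dnmt3b was at 131 and 151 CPM in nascent mesoderm, for a ratio of 1.15 (0.968 to 1.36), at 113 and 116 CPM in lateral and extraembryonic mesoderm, for a ratio of 1.02 (0.883 to 1.19), and at 98.3 and 107 CPM in blood and endothelial progenitors, for a ratio of 1.09 (0.943 to 1.27). None of these intervals left out 1. Those of nascent mesoderm and of blood and endothelial progenitors also held the ratios of all cells, 1.32 and 1.23. The restriction kept 23 control and 27 Yap1 cKO cells of nascent mesoderm. It kept 54 and 36 of lateral and extraembryonic mesoderm, and 39 and 43 of the blood gate. In Yap1 cKO lateral and extraembryonic mesoderm 1 cell held 19.2% of the Dnmt3b UMIs, and the median cell was at 84.8 CPM against 106 CPM in control. For Dnmt3a the same restriction gave 1.34 (0.908 to 1.98), 1.34 (1.03 to 1.74) and 1.34 (1.08 to 1.67).

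**Figure D4:**
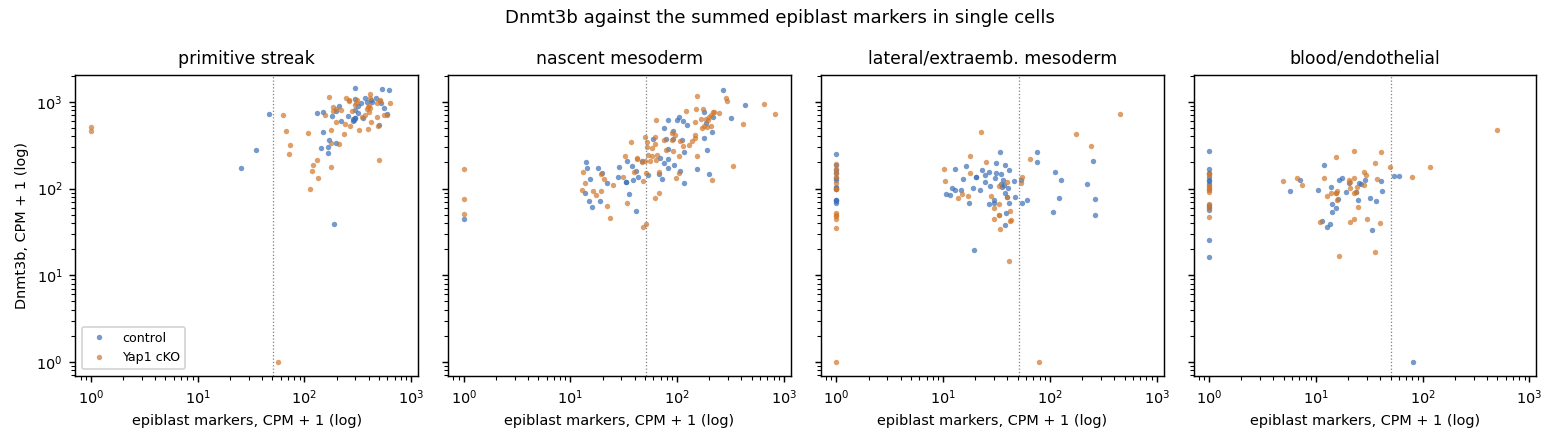
Dnmt3b (y axis, CPM + 1, log) against the summed epiblast markers (x axis, CPM + 1, log) in single cells of 4 populations, control and Yap1 cKO. The dotted line marks 50 CPM of epiblast markers. To its left the libraries overlap, with ratios of the summed UMIs of 1.15, 1.02 and 1.09 in the 3 mesoderm and blood panels.

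Qser1 and Jmjd1c parted in the mesoderm. In nascent mesoderm Qser1 was at 54.4 and 56.4 CPM, for a ratio of 1.04 (0.882 to 1.22). In lateral and extraembryonic mesoderm it was at 61.9 and 46.9 CPM, for a ratio of 0.759 (0.621 to 0.923), while Jmjd1c there was at 73.9 and 101 CPM, for a ratio of 1.36 (1.17 to 1.58), which was 1.09 with each cell thinned to 38000 UMIs. Restricted to cells with few epiblast markers, the ratios in this population were 0.721 (0.573 to 0.902) and 1.36 (1.14 to 1.61). In the Y-bearing cells of this population, 44 control and 7 Yap1 cKO, the ratio was 1.05 (0.701 to 1.54) for Qser1. For Dnmt3b it was 0.913 (0.677 to 1.21) and for Dnmt3a 0.770 (0.408 to 1.35). These values lie on the other side of 1 from those of the whole population, but each interval holds 1. In the primitive streak Jmjd1c was at 154 and 124 CPM, for a ratio of 0.80 (0.708 to 0.903), and Tet3 at 22.7 and 15.5 CPM (67 and 82 UMIs), for a ratio of 0.682 (0.488 to 0.956), which became 1.01 with gate minimums 2-fold higher.

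The counts of members past the fold in these populations stand beside the shares of all genes. In the primitive streak 2 of 8 were lower and 0 higher, where 13.4% of all genes were lower and 6.66% higher. In nascent mesoderm 0 of 7 were lower and 1, Dnmt3b, was higher, against 8.82% and 7.04% of all genes. In lateral and extraembryonic mesoderm 1 of 7 was lower and 3 were higher (Dnmt3a, Dnmt3b and Jmjd1c), against 11.8% and 8.08%, the largest count among the populations. In blood and endothelial progenitors 1 of 8, Dnmt3a, was higher and 0 lower, against 13.7% and 9.05%. In the node 1 of 8, Tet3 with a ratio of 0.780 (0.602 to 1.01) and of 1.05 with gate minimums 2-fold higher, was lower and 0 higher, against 17.4% and 6.53%.

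**Figure D5:**
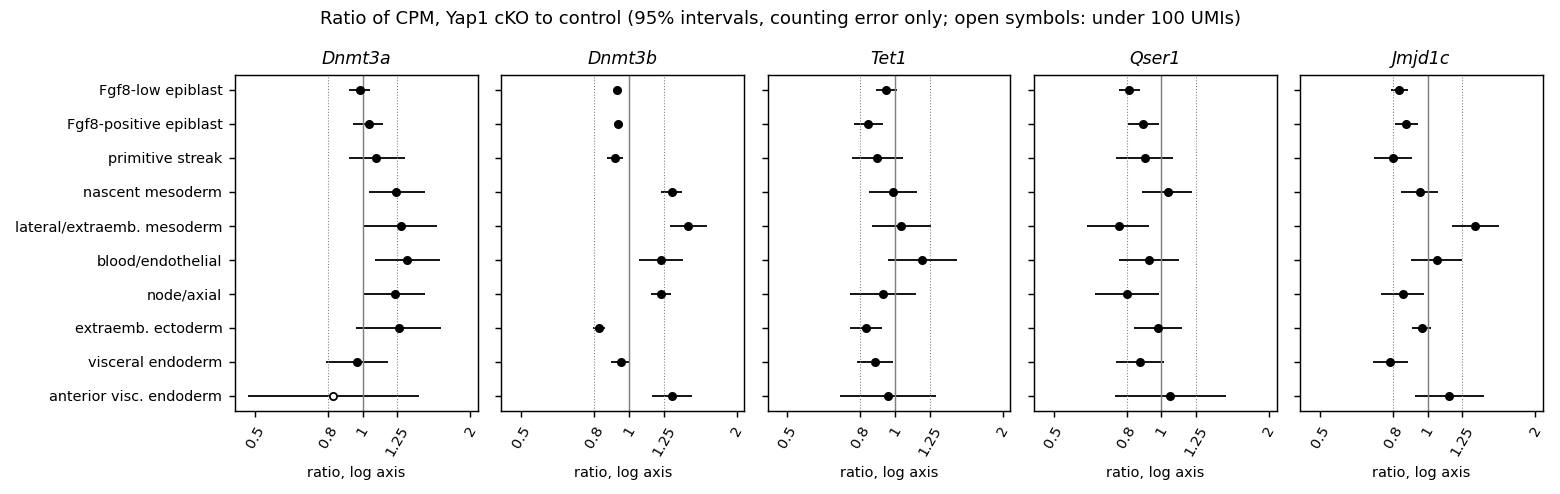
Ratio of CPM, Yap1 cKO to control (x axis, log), for 5 members in the 10 gated populations (y axis), with 95% intervals for counting error only. Dotted lines mark 0.8 and 1.25, and the open symbol stands for under 100 UMIs. Dnmt3b lies below 1 in the epiblast (1.06 once divided by its ratio in extraembryonic ectoderm) and in extraembryonic ectoderm (0.824) and above 1 in nascent and lateral mesoderm (1.32 and 1.46).

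The extraembryonic populations, in which by the study's account Sox2-Cre does not act, showed differences of similar size for some members. In the extraembryonic ectoderm Dnmt3b was at 385 CPM (6476 UMIs) and 317 CPM (3870 UMIs), for a ratio of 0.824 (0.792 to 0.858), lower than its ratio in the epiblast. Tet1 was at 58.4 and 48.4 CPM there, for a ratio of 0.828 (0.747 to 0.918). Divided by these ratios, that of the epiblast came to 1.06 (1.02 to 1.11) for Dnmt3b and 1.02 (0.908 to 1.14) for Tet1. With all cells summed, ratios as low as those of the epiblast were thus seen for both genes in this extraembryonic tissue. Yap1 itself stood there at 0.766 (0.649 to 0.902) of its control level, and its part in these ratios was not tested. This gate was not alike in the 2 libraries either. Its marker list was at 731 and 614 CPM, Fgf8 at 0.178 and 7.70 CPM and the nascent mesoderm markers at 0.416 and 4.10 CPM. Split by sex, Tet1 came to 0.674 (0.541 to 0.832) among Y-bearing cells, 106 control and 19 Yap1 cKO. Xist-bearing cells gave 0.986 (0.837 to 1.16) for Tet1. Dnmt3b was lower in both sexes, at 0.840 (0.778 to 0.907) and 0.804 (0.756 to 0.854). In visceral endoderm, with all cells summed, Dnmt3b had a ratio of 0.949 (0.892 to 1.01), and the epiblast ratio divided by it was 0.924 (0.867 to 0.984). The pooled 0.949 lay below the ratio of either sex. In Y-bearing visceral endoderm, 25 control and 11 Yap1 cKO cells, Dnmt3b was at 1.01 (0.855 to 1.18). In Xist-bearing cells, 43 and 168, it was at 1.15 (1.06 to 1.25). With all cells of the extraembryonic ectoderm summed, Qser1 and Jmjd1c had ratios of 0.979 (0.838 to 1.14) and 0.962 (0.904 to 1.02). Their epiblast ratios divided by these were 0.779 (0.663 to 0.915) and 0.845 (0.784 to 0.910). Split by sex, Jmjd1c there was lower in Y-bearing cells, at 0.817 (0.720 to 0.924), and at 0.996 (0.904 to 1.10) in Xist-bearing cells. Qser1 was at 1.09 (0.826 to 1.43) and 1.11 (0.862 to 1.45).

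Visceral endoderm gave another reference. Jmjd1c was at 76.3 and 60 CPM there, for a ratio of 0.787 (0.703 to 0.882), and Qser1 at 39.8 and 34.6 CPM, for a ratio of 0.869 (0.745 to 1.02). Against this tissue, with all cells summed, the epiblast ratio came to 1.03 (0.917 to 1.16) for Jmjd1c and 0.878 (0.747 to 1.03) for Qser1. Split by sex, Jmjd1c in visceral endoderm stood at 0.769 (0.547 to 1.06) among Y-bearing cells, 25 control and 11 Yap1 cKO. Among Xist-bearing cells, 43 and 168, it stood at 0.889 (0.769 to 1.03), so each interval held 1. Qser1 stood at 0.595 (0.347 to 0.976) and 1.01 (0.829 to 1.24). The epiblast ratios were not divided by these within a sex. In anterior visceral endoderm Dnmt3b was at 303 and 400 CPM, for a ratio of 1.32 (1.16 to 1.5), with 1.07 in Xist-bearing and 1.90 in Y-bearing cells. The gate's visceral endoderm markers were at 6086 and 7185 CPM and its anterior list at 2631 and 2194 CPM. Of 10 members tested in extraembryonic ectoderm 0 were lower and 1, Dnmt3a with 114 and 104 UMIs, was higher past the fold, against 8.26% and 4.12% of all genes, and 1 Yap1 cKO cell held 18.3% of these UMIs in its library. The epiblast ratio of Dnmt3a divided by this one was 0.729 (0.557 to 0.956). Of 8 tested in visceral endoderm 1 was lower and 0 higher, against 9.38% and 7.31%, and of 6 in anterior visceral endoderm 0 were lower and 1 higher, against 11.0% and 11.5%. Yap1 was at 31.4 and 27.6 CPM in visceral endoderm and at 39.8 and 16.6 CPM in anterior visceral endoderm (48 and 33 UMIs).

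Of 52 other listed genes of DNA methylation, 45 had at least 100 UMIs in the epiblast, and 6 of them were lower and 1 higher past the fold, beside 8.73% and 5.10% of all genes, with a median ratio of 0.972 beside 0.969 for all genes. The lowest were Zfp57, which protects imprinted regions from demethylation, at 8.54 and 5.32 CPM with a ratio of 0.623 (0.495 to 0.783), and Idh1, which makes the cofactor of the TET enzymes, at 27.9 and 18.3 CPM with a ratio of 0.658 (0.582 to 0.745). Next came Gadd45a, linked to active demethylation, with 0.738 (0.609 to 0.894), and Zbtb33, a reader of methylated DNA, with 0.764 (0.637 to 0.916). The other 2 lower ones were Kdm3a, a paralog of Jmjd1c, with 0.772 (0.683 to 0.873), and Tdg, the glycosylase that acts after the TET enzymes, with 0.781 (0.742 to 0.823). These 2 were named after their values were seen. The highest were Smug1, a glycosylase with 67 and 100 UMIs, at 1.26 (0.918 to 1.75), Cxxc4 at 1.14 (0.921 to 1.40), the repair gene Xrcc1 at 1.13 (1.02 to 1.25), and Hells, a remodeller needed for DNA methylation, at 325 and 358 CPM with 1.10 (1.07 to 1.14). Prr12, the paralog of Qser1, was at 29.3 and 29.2 CPM, for a ratio of 0.998 (0.896 to 1.11), and is likewise named outside the rule. In nascent mesoderm 2 of 39 listed genes were lower and 1 higher, in extraembryonic ectoderm 6 of 44 and 0, and in visceral endoderm 5 of 45 and 1, beside the shares of all genes given above. The median ratios were 0.958, 0.935 and 0.949, beside 0.985, 0.965 and 0.982 for all genes.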

How the data were processed

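Single cells of 2 pools of E7 mouse embryos were captured with 10x Genomics 3′ chemistry, which tags each molecule with a UMI. The authors deposited unnormalised counts of UMIs per gene and barcode, 1 matrix a library, made per the submitters' processing notes with Cell Ranger 7.1.0 on mm10. The study's methods give default settings, under which this version counts intronic reads. A gene on the opposite strand, such as Reep3 within Jmjd1c, is counted apart by default.

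Barcodes were kept if they held 5000 genes or more, if mitochondrial UMIs made up no more than 10%, and if Scrublet (in scanpy 1.11.5) did not call them doublets, after the study's methods: 790 of 1829 control barcodes (70573418 UMIs in all) and 860 of 1897 Yap1 cKO barcodes (87937858 UMIs). The study also assessed ambient RNA with SoupX, and here the counts were not corrected for it. The pools held 4 and 3 embryos. Cells passed through a fixed sequence of marker gates in CPM, whose minimums were set after the distributions were seen: visceral endoderm 1000 (anterior also 300 of its own list), extraembryonic ectoderm 100 of Elf5 and Wnt7b, blood and endothelial progenitors 300, node 100, lateral and extraembryonic mesoderm 200, nascent mesoderm 150, streak 50 of T, Mixl1 and Evx1, and epiblast 300, split at 50 CPM of Fgf8. Cells were called Y-bearing or Xist-bearing from 2 UMIs of one kind and none of the other. UMIs were summed by gate and library and compared as CPM, for genes whose UMIs in the 2 libraries summed to 100 or more.

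Each group has 1 library, so no p-value was computed, and the intervals (exact Poisson for levels, exact binomial for ratios and shares, normal on the log scale for standardised ratios and ratios of ratios) cover counting error only, not the spread between embryos. Genes are named by rule: all 10 members, Yap1, the 4 lowest and 4 highest of the methylation list in the epiblast, and the 3 genes most like each of 5 members, of which 1 is not reported here. Kdm3a, Tdg and Prr12 are named outside it. The members, lists and gates were chosen with earlier results of these data known. Alternatives changed the cell filters, gates, scaling, weighting, sex and make-up of the cells and the fold. Interval and ratio code was tested on simulated data. Positions are from GENCODE and promoter windows from RefSeq, both for GRCm38. Numbers were computed with Python 3.11.15, numpy 2.4.6, scipy 1.17.1 and pandas 2.3.3.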

Additional observations from a re-analysis of the deposited data

Results flagged for a closer look

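For 3 genes the ratio of Yap1 cKO to control went opposite ways in a pair of populations. Each pair holds the highest and the lowest ratio of its gene among the epiblast, streak, mesoderm, blood and node gates. The pairs were thus picked from these same data, with the interval of one ratio above 1 and that of the other below 1. The intervals of the ratios of ratios do not allow for this choice, so that they leave out 1 is no test of a difference. With 1 library a genotype the difference between populations was not tested, and the intervals cover counting error only. Dnmt3a had a ratio of 1.33 in blood and endothelial progenitors and 0.918 in the epiblast, so the former was 1.45 (1.17 to 1.79) times the latter. Weighted to the control's shares of Fgf8-low and Fgf8-positive UMIs, its epiblast ratio was 0.992 (0.938 to 1.05). Divided by the ratio in extraembryonic ectoderm, its ratios in blood and endothelial progenitors and in the epiblast were 1.05 and 0.729. Dnmt3b had a ratio of 1.46 in lateral and extraembryonic mesoderm and 0.877 in the epiblast, 1.67 (1.48 to 1.88) times apart. In this mesoderm 1 Yap1 cKO cell held 19.2% of the Dnmt3b UMIs, and among cells with under 50 CPM of epiblast markers the ratio there was 1.02. Jmjd1c had a ratio of 1.36 in lateral and extraembryonic mesoderm and 0.80 in the primitive streak, 1.70 (1.41 to 2.06) times apart, and its ratio in this mesoderm was 1.09 with thinned cells. The epiblast markers were at 43.6 and 57.5 CPM in lateral and extraembryonic mesoderm and at 294 and 298 CPM in the streak, control first. For Jmjd1c in this mesoderm, cells with under 50 CPM of these markers gave a ratio of 1.36 (1.14 to 1.61). For Dnmt3a in blood and endothelial progenitors such cells gave 1.34 (1.08 to 1.67). The part of these markers in any of these ratios was not tested.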

How the results depend on the processing

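The epiblast ratio of Qser1 (0.763) ran from 0.624 to 0.842 over 17 alternatives, below 1 in all and at 0.8 or less in 13. That of Jmjd1c (0.813) ran from 0.705 to 0.872 and that of Dnmt3b (0.877) from 0.854 to 1.06. In Y-bearing cells alone the ratios were 0.624 for Qser1, 0.705 for Jmjd1c and 0.854 for Dnmt3b, with 4 members past the fold in place of 1, and the Qser1 level of the epiblast over the extraembryonic ectoderm in Yap1 cKO was 3.06 in place of 4.31. In Xist-bearing cells alone they were 0.842, 0.872 and 0.933, with 0 members past the fold, and that level in control was 6.34 in place of 5.53. With Fgf8-low epiblast alone Qser1 was at 0.814, Dnmt3b at 0.929, 0 members were past the fold, and the level in Yap1 cKO was 4.98. It was 5.16 with thinned cells. Standardised to the control's Fgf8 make-up in 2 and 4 bins, chosen after seeing the data, Qser1 was at 0.829 and 0.832, Dnmt3b at 0.930 and 0.941, and 0 members were past the fold in each. Divided by the extraembryonic ectoderm ratio, Dnmt3b was at 1.06 and 2 members (Qser1 and Dnmt3a) were past the fold. Divided by the median ratio Dnmt3b was at 0.905, and with gate minimums 2-fold higher at 0.902. At a limit of 0.7, 0 members were past the fold.

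Over all populations 12 ratios of named members were past the fold, 6 with cells weighted equally and 21 each in Y-bearing and Xist-bearing cells alone, with fewer cells. The share of all genes past the fold is given above by population. It was not computed for equally weighted cells or for cells of either sex alone. These counts, and those in the epiblast of either sex, are therefore not read as results about the members. In lateral and extraembryonic mesoderm, Y-bearing cells put Dnmt3a (0.770), Dnmt3b (0.913) and Qser1 (1.05) on the other side of 1. Only 7 of these were Yap1 cKO cells, and each interval holds 1. The higher gate minimums turned the direction of Tet3 in the streak (1.01) and node (1.05). The cause of these shifts was not tested. No paired analysis was possible because each group has 1 library. Tet2 and Dnmt3l were too shallow in most populations to show a difference. Genotype, pool, library and the unequal share of male cells cannot be told apart.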

Other observations

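Cells with at least 3 of 5 germ cell markers were few, 10 among control cells and 15 among Yap1 cKO cells, and lay mostly in the streak and mesoderm gates. Their number and mixed gates allow no comparison of the 10 genes between libraries.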
